A study of Mus musculus with 12 samples.

Results

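The 10 genes described here mark or control the stem and progenitor stages of mouse spermatogonia: Gfra1, Ret, Zbtb16, Sall4, Id4, Foxo1, Nanos3, Uchl1, Ccnd2 and Kit. Every peak of N6-methyladenosine (m6A) that the authors assigned to these genes by name was taken, which gave 30 peaks of 65355 in all. Of these, 14 of 32277 stand in the list from testes without Alkbh5 (KO) and 16 of 33078 in the list from wild-type testes (WT). The groups are KO IP, KO input, WT IP and WT input, with 3 libraries each, from whole testes at postnatal day 18. KO mice are Alkbh5-/- and so lack an enzyme that demethylates m6A in RNA. The sources used here give neither the deleted part of the gene nor the strain, nor whether WT mice were littermates. The series concerns spermatocytes, but whole testis also holds spermatogonia and somatic cells. IP libraries hold RNA fragments pulled down with an m6A antibody, and input libraries stand beside them. What was deposited is a peak list for each genotype without values per library, which leaves sequencing depth unknown and the spread between mice unmeasured. Nothing below could be tested across mice, and each difference is a difference between 2 lists.

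Spermatogonial stem cells renew under GDNF, a factor from Sertoli cells that binds the co-receptor GFRA1 and signals through the kinase RET. The transcription factors ZBTB16 (also known as PLZF), SALL4 and FOXO1, the helix-loop-helix inhibitor ID4 and the RNA-binding protein NANOS3 act in undifferentiated spermatogonia. UCHL1 is a deubiquitinating enzyme of spermatogonia and neurons. Cyclin D2, the product of Ccnd2, and the receptor KIT are associated with the step to differentiating spermatogonia. Many of these genes are not limited to germ cells: Kit is also expressed in Leydig and mast cells, Ret and Uchl1 in neurons, and Ccnd2 and Foxo1 in many cell types.

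No genome sequence was used here, so letters could be shown for a gene start only. RefSeq windows (GRCm38.p6) of 250 bases before and 50 after the transcript start matched 6 members (Foxo1, Uchl1, Kit, Nanos3, Id4 and Gfra1). Among them, peaks reached the windows of Nanos3 and Uchl1. The Nanos3 stretch below runs from the first ATG after the RefSeq start to the end of its window on the minus strand, chr8:84176503-84176531. It is shown because the shared peaks of both lists meet there. Capitals mark GGAC or GGACT, the core of the sequence that m6A is most often found in.

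Nanos3, from its first ATG: atggGGACTttcaatctttGGACagatta

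All 29 bases lay inside the span of the WT peak, and the span of the KO peak covered the last 4. The lists carry no exon blocks, so which part of the long WT span was enriched is unknown. In the 50 bases after the start, GGAC was found on the transcript strand of 1 of the 6 members, Nanos3, and of 18.9% of 27025 genes with a window. On the opposite strand these figures were 1 of 6 and 17.2%. GGACT, which contains GGAC, was found on the transcript strand of Nanos3 and of 5.79% of genes, and on the opposite strand of 0 of the 6 members and 4.89% of genes. Uchl1 had neither on the transcript strand in these 50 bases.

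The labelled tissue was checked against fixed markers. Peaks of at least 1 list were found in 2 of 3 germ cell markers (Dazl and Tex101, not Ddx4), in 4 of 5 spermatocyte markers and in 5 of 5 Sertoli cell markers. The Leydig cell markers gave 4 of 5, and the peritubular, endothelial and macrophage markers 1 of 2 each. A marker without a peak may still be transcribed, since the lists give no transcript levels. Alkbh5 itself had 0 peaks in the KO list and 3 in the WT list.

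Most stem and progenitor genes carried m6A peaks in both genotypes. Of the 10 members 9 had a peak, and 7 of these 9 (77.8%) had peaks in both lists, namely Gfra1, Zbtb16, Sall4, Id4, Foxo1, Nanos3 and Ccnd2. Over all genes with a peak in either list this share was 80.2%. Ret was in the KO list alone and Uchl1 in the WT list alone. Kit, the receptor for stem cell factor, was in neither list. In whole testis, absent methylation, few expressing cells and low RNA per cell cannot be told apart as sources of a missing peak.

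Most of the members' peaks were annotated to the 3' UTR. The 3' UTR held 9 of 14 KO peaks (64.3%) and 10 of 16 WT peaks (62.5%), beside 48.8% of all KO and 48.9% of all WT peaks. Coding exons held 4 KO peaks (28.6%) and 2 WT peaks (12.5%), beside 19.5% of all KO and 17.8% of all WT peaks. The 5' UTR held 1 KO peak (7.14%) and 4 WT peaks (25.0%), beside 12% of all peaks in each list. These counts are small, and the overlapping Nanos3 peaks were annotated to a coding exon in KO and to the 5' UTR in WT. None of the members' peaks was annotated to an intron or a noncoding exon. Over the whole lists noncoding exons held 14.7% of KO and 16.6% of WT peaks. The members code for proteins, so these shares of the whole lists are not a matched comparison. The 3' UTR class also holds the Foxo1 spans, which begin near the gene's 5' end, and a Ccnd2 peak inside the gene. The median fold enrichment, the authors' ratio of IP over input for each peak, was 5.46 for the members' KO peaks and 6.29 for their WT peaks. Over the whole lists it was 6.32 for KO and 6.02 for WT.

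A peak was called shared when it overlapped a peak of the other list by at least 1 base on the same strand. Otherwise it is called KO-only or WT-only. Of the members' KO peaks 2 of 14 (14.3%) were KO-only, where 19.3% of all KO peaks were. Of their WT peaks 4 of 16 (25.0%) were WT-only, where 21.6% of all WT peaks were. Both shares are near the background, so neither is a result about these genes. The KO-only peaks lay in Ret and Gfra1, and the WT-only peaks in Foxo1, Nanos3, Uchl1 and Ccnd2. Markers of other cells also had WT-only peaks with a false discovery rate (FDR) at or below 0.05, namely 3 of 4 spermatocyte markers with a peak (Sycp1, Sycp3 and Piwil1) and 3 of 5 Sertoli cell markers (Sox9, Amh and Wt1). Over all genes with a peak, a WT-only peak at that limit was found in 20.6% and a KO-only one in 16.7%. KO-only peaks at that limit were found in the Leydig cell marker Star (fold 1.84, log10 FDR -18.3) and the endothelial marker Cdh5 (fold 2.45, log10 FDR -6.56). The Leydig cell marker Insl3 (fold 1.65) and the germ cell marker Tex101 (fold 2.14) had WT-only peaks. The part of cell composition in the members' peaks was not tested.

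**Figure D1:**
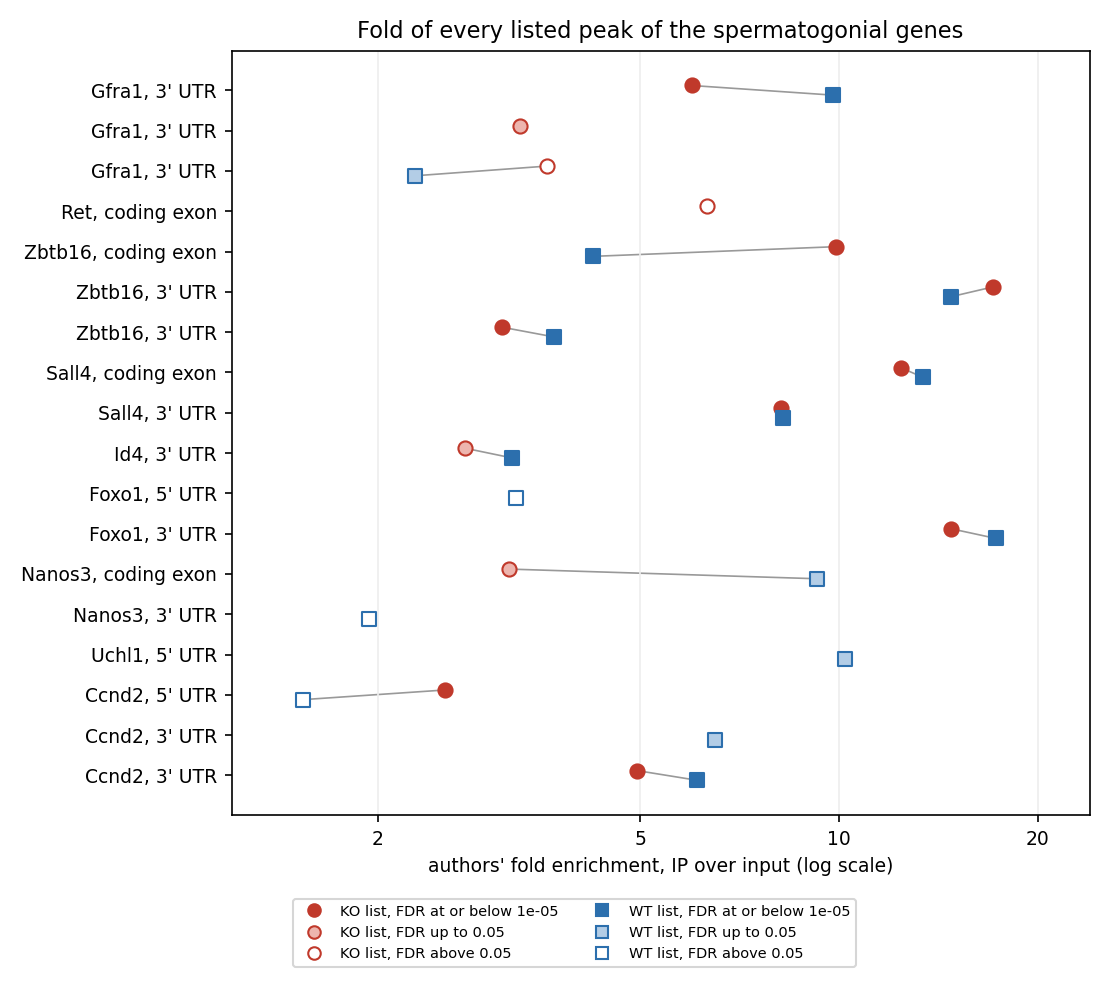
The authors' fold enrichment (log scale) of each of the 30 peaks of the members, ordered by gene and by position from the 5' end, with KO as circles and WT as squares. Grey lines join shared peaks, and the fill gives the FDR class. The Zbtb16 coding pair (9.89 in KO, 4.24 in WT) and the Nanos3 pair (3.16 in KO, 9.26 in WT) lie farthest apart, and no peak without a line has the darkest fill.

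By the authors' FDR, 3 of the members' 6 genotype-only peaks had an FDR above 0.05 and 0 an FDR at or below 1e-05, while 18 of their 24 shared peaks were at or below 1e-05. Of all genotype-only peaks 41.6% were above 0.05 and 10.2% at or below 1e-05, and of all shared peaks 62.4% were at or below 1e-05. The listed folds also move in steps. Among genotype-only peaks whose fold lay between 10 and 100, 96.9% in the KO list were whole multiples of 0.902 and 95.8% in the WT list whole multiples of 0.926. Below a fold of 10 these shares were 47.6% and 44.3%, where chance gives 1.11% and 1.08%. Of the members' genotype-only peaks 3 of 6 were such multiples (Ret, Uchl1 and Ccnd2), and of their shared peaks 6 of 24. The input under these peaks is unknown, so their folds are not read as exact ratios.

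Of the 2 members that code for GDNF receptors, Gfra1 and Ret, only Gfra1 had peaks with an FDR at or below 0.05. Gfra1 (ENSMUSG00000025089, chromosome 19, minus strand) had 3 KO peaks and 2 WT peaks, all in the 3' UTR. Its main peak had a fold of 5.98 in the KO list (58237758 to 58238386, log10 FDR -16.8) and of 9.81 in the WT list (58237788 to 58238416, log10 FDR -11.4). Both spans were 629 bases long and were displaced by 30 bases against each other. The KO fold was thus lower, by a log2 ratio of -0.71, while the KO peak had the lower FDR. The KO and WT lists assigned this peak to different transcripts of Gfra1.

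Nearer the transcript end, Gfra1 had a KO-only peak of fold 3.28 (58236113 to 58236262, log10 FDR -3.12), 509 bases from the end of the gene. At the end itself, a KO peak of fold 3.61 (58235604 to 58235664, log10 FDR -1.29) overlapped a WT peak of fold 2.28 (58235634 to 58235843, log10 FDR -1.71) by 31 bases. This pair was not shared when 50% of both peaks had to overlap. Peaks of the opposite-strand gene Gm16277 overlapped both of these end peaks, with a fold of 8.12 in the KO list and 2.41 in the WT list.

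Ret (chromosome 6, minus strand) had 1 peak, KO-only, in a coding exon (118153929 to 118153989). Its fold was 6.32, which is 7 steps of 0.902, and its log10 FDR was -0.367. Ret therefore shows no peak that passes an FDR of 0.05 in either list.

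**Figure D2:**
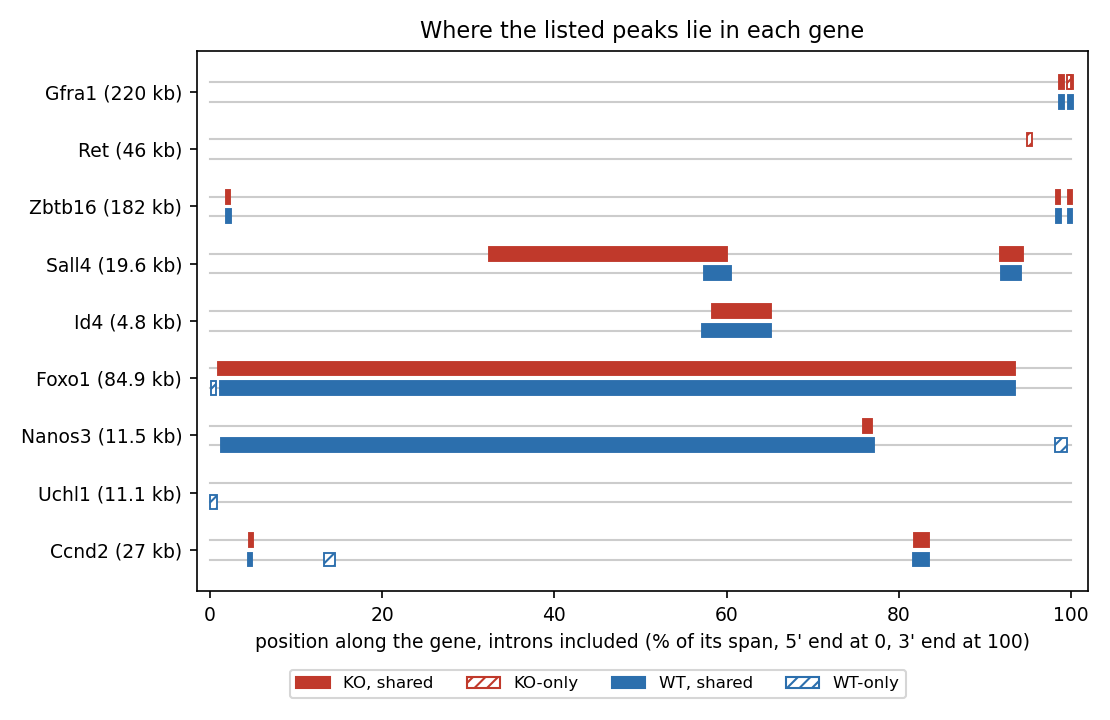
Peak spans along the 9 members with a peak, from the 5' end (0%) to the 3' end (100%) of each gene with introns included, KO above WT in each pair of lines. Filled bars are shared peaks, hatched bars KO-only or WT-only peaks, and short peaks are drawn at a minimum width. Gfra1 peaks sit at the 3' end, Foxo1 spans most of its gene in both lists, and Nanos3 has a long span in WT beside a short one in KO.

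The transcription factors carried the strongest peaks, and most of these were alike in both lists. Zbtb16 (chromosome 9, minus strand), whose product keeps spermatogonia undifferentiated, had 3 shared peaks. The 3' UTR peak farther from the transcript end had a fold of 17.1 in KO (48656863 to 48657192) and 14.8 in WT (48656774 to 48657192), with the same 5' edge. The peak nearer that end had a fold of 3.09 in KO (48654387 to 48654566) and 3.70 in WT (48654327 to 48654685). It lay by the 3' end of the authors' gene model (48654297), while the RefSeq gene runs on to 48651797. Both 3' UTR pairs differed by less than 1.5 times.

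The coding peak of Zbtb16 stood apart from these. It had a fold of 9.89 in KO (48831904 to 48832740, log10 FDR -114) and of 4.24 in WT (48831994 to 48832590, log10 FDR -15.3). The KO fold was 2.33 times the WT fold, the largest KO excess among the members' pairs, and the KO span reached 150 bases farther at its 5' edge and 90 at its 3' edge. KO folds over 1.5 times the WT fold were found in 3 of the 12 member pairs (25.0%), where 16.2% of all shared pairs were so. They were this pair, the Gfra1 end pair (KO log10 FDR -1.29) and the Ccnd2 5' UTR pair (WT log10 FDR -0.91). Those Gfra1 and Ccnd2 peaks had an FDR above 0.05.

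Sall4 (chromosome 2, minus strand), a zinc-finger partner of ZBTB16, had 2 shared peaks. The coding peak had a fold of 12.4 in KO (168756177 to 168761583, log10 FDR -133) and 13.4 in WT (168756087 to 168756685, log10 FDR -88.4). The folds were close, but the listed KO span was 5407 bases, introns included, against 599 in WT, because its 5' edge lay 4898 bases farther upstream. With 50% of both peaks required to overlap, this pair was not shared. The 3' UTR peak was nearly the same in both lists, with a fold of 8.18 in KO (168749439 to 168749948) and 8.23 in WT (168749469 to 168749918).

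Foxo1 (chromosome 3, plus strand), the forkhead factor that PI3K and AKT signalling keeps out of the nucleus, had the members' lowest p-values. Its shared peak had a fold of 14.8 in KO (52269145 to 52347675, log10 p -404) and 17.3 in WT (52269325 to 52347645, log10 p -331). It was annotated to the 3' UTR, but its span began 809 bases from the gene's 5' end in KO and 989 in WT. The lists carry no exon blocks, so the methylated exons within these 78531 and 78321 bases are not resolved. A WT-only peak in the 5' UTR had a fold of 3.24 (52268576 to 52268846) and an FDR above 0.05 (log10 FDR -1.23). Opposite it stood a peak of Gm20402 with a fold of 3.33 (52268614 to 52268853), which was WT-only as well. Shared Gm20402 peaks also stood opposite the long Foxo1 span in both lists. Their fold was 1.52 in KO (log10 FDR -0.81) and 1.77 in WT (log10 FDR -1.06), with an FDR above 0.05 in each list.

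Id4 (chromosome 13, plus strand), an inhibitor of helix-loop-helix factors and a stem cell marker, had 1 shared peak in the 3' UTR. The fold was 2.71 in KO (48264027 to 48264356, log10 FDR -3.12) and 3.19 in WT (48263968 to 48264356, log10 FDR -9.72), with the same 3' edge. With both lists limited to an FDR of 1e-05, the Id4 peak remained in the WT list alone.

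**Figure D3:**
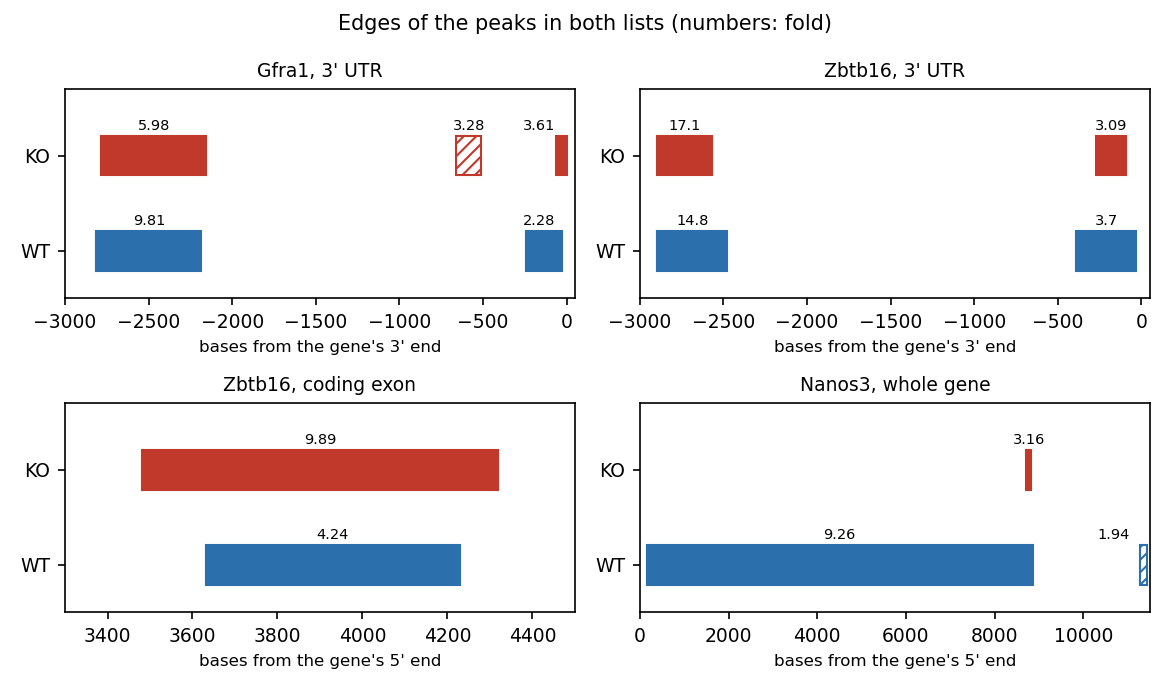
Peak spans of Gfra1 and Zbtb16 within the last 3 kb of each gene, of the Zbtb16 coding peak and of the whole Nanos3 gene, by distance in bases from the gene's 3' or 5' end, with KO above WT and the fold printed over each bar. Gene ends are those of the authors' annotation. Hatched bars are KO-only or WT-only. The Zbtb16 coding peak is longer in KO, and the long Nanos3 span is in the WT list.

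Nanos3 (chromosome 8, minus strand), which represses translation through the 3' UTRs of its targets, gave the largest difference in listed span among the members' shared pairs. The KO list had 1 peak, in a coding exon (84176387 to 84176506, fold 3.16, log10 FDR -3.64). The WT list had a peak of fold 9.26 (84176357 to 84185068, log10 FDR -2.28), annotated to the 5' UTR. Its listed span of 8712 bases includes any introns, and the lists carry no exon blocks, so the methylated part is not resolved. The WT span reached 8516 bases upstream of the RefSeq transcript start, into the longer gene model of the authors' annotation. The KO peak began 46 bases downstream of that start. The WT fold was 2.93 times the KO fold, was 10 steps of 0.926, and rests on the wider span. The overlap was the whole KO peak but 1.38% of the WT span, and the pair was not shared when 50% of both had to overlap. In the 3' UTR a weak peak (84173791 to 84173939), also WT-only, had a fold of 1.94 and an FDR above 0.05 (log10 FDR -0.84).

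Uchl1 (chromosome 5, plus strand) had 1 peak, WT-only, that began at the first base of the gene in the 5' UTR (66676091 to 66676180). Its fold was 10.2, which is 11 steps of 0.926, with a log10 FDR of -1.62. Opposite it stood a WT-only peak of Uchl1os, the antisense gene of this locus, with a fold of 6.02 (66676078 to 66676198, log10 FDR -1.54). Of the members' 4 WT-only peaks 2 faced another WT peak on the opposite strand, those of Uchl1 and Foxo1. Over all WT-only peaks this share was 7.62%, and over all WT peaks 9.22%. The labels' protocols describe dUTP labelling of the second strand, and the sources used here do not say whether the peak caller used strand.

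Ccnd2 (chromosome 6, minus strand), the D-type cyclin, had 2 KO peaks and 3 WT peaks. The shared 3' UTR peak had a fold of 4.94 in KO (127129626 to 127130106, log10 FDR -63.5) and 6.09 in WT (127129626 to 127130136, log10 FDR -49.5). The shared 5' UTR peak had a fold of 2.53 in KO (127150822 to 127150972, log10 FDR -7.36) and 1.54 in WT (127150882 to 127150972, log10 FDR -0.91), 1.64 times as high in KO. The WT peak failed an FDR of 0.05, so at that limit the 5' UTR of Ccnd2 was marked in the KO list alone. A WT-only peak of fold 6.48 (127148276 to 127148605, log10 FDR -1.57), 7 steps of 0.926, was annotated to the 3' UTR of another transcript, inside the gene.

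Across the 12 shared pairs of the members, the median log2 ratio of KO over WT fold was -0.17, and the ratios ran from -1.55 (Nanos3) to 1.22 (Zbtb16, coding). The median of all 26037 shared pairs was -0.04, with quartiles at -0.47 and 0.35. The KO fold was higher in 4 of 12 pairs (33.3%), where it was higher in 45.5% of all pairs. WT folds over 1.5 times the KO fold were found in 2 of 12 (16.7%), Gfra1 and Nanos3, against 20.6% of all pairs. The limit of 1.5 times was chosen after the values were seen. Of the 8 pairs with an FDR at or below 1e-05 in both lists, 6 lay within 1.5 times, and the exceptions were the main Gfra1 peak and the Zbtb16 coding peak.

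The FDR was lower in the KO list for 9 of the 12 pairs, where 52.1% of all pairs had it so. The exceptions were the end peak of Gfra1, Id4, and Foxo1, whose FDR was listed as 0 in both lists. An FDR depends on depth, which is unknown. The edges of shared peaks moved on a grid: 22 of the 24 edges of the member pairs differed by a multiple of 30 bases (0 included, within 1 base) and by at most 180 bases. The other 2 were the 5' edges of the long Sall4 and Nanos3 spans. Over all shared pairs 84.5% of edges lay on this grid. Shifts of 30 bases, as in the main Gfra1 pair, are thus the smallest step the lists hold between most edges.

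**Figure D4:**
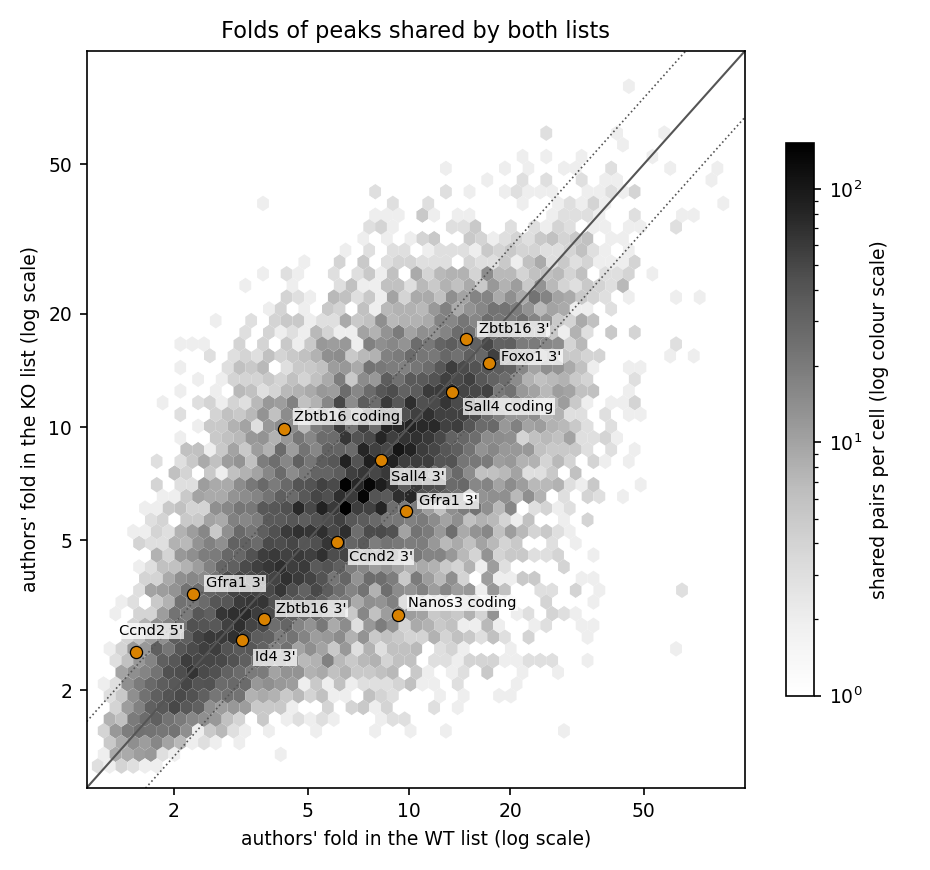
The authors' fold of each shared pair in the KO list (vertical, log scale) against the WT list (horizontal, log scale), with all pairs below a fold of 100 as grey cells and the 12 member pairs in orange. The solid line marks equal folds and the dotted lines a difference of 1.5 times. Of the member pairs 7 lie between the dotted lines. Above them lie 3 (Zbtb16 coding, Ccnd2 5' UTR and the Gfra1 end pair), and below them 2 (Nanos3 and the main Gfra1 pair).

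The other genes of these pathways were read from lists of 101 genes, of which 88 had a peak. A KO-only peak with an FDR at or below 0.05 was found in 17 of these (19.3%), beside 1 of the 9 members with a peak (Gfra1) and 16.7% of all genes. A WT-only peak at that limit was found in 19 (21.6%), beside 2 of the 9 members (Uchl1 and Ccnd2) and 20.6% of all genes. These shares stand near the background. The input under the peaks of these genes is unknown too, so their folds below are not read as exact ratios.

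In GDNF and RET signalling, 21 of 22 genes had a peak. At the 0.05 limit 3 genes had KO-only peaks and 3 had WT-only peaks (14.3% each), beside 16.7% and 20.6% of all genes with a peak. The KO-only peaks were in Gfra2 (fold 14.4), Artn (12.6) and Gfra4 (2.17), co-receptors and a ligand of the GDNF family. The WT-only peaks were in Lhx1 (10.2) and Bcl6b (9.72), transcription factors under GDNF control in cultured stem cells, and in the adaptor Shc1 (1.64). By KO fold, the highest shared peaks were those of Pou3f1, a POU factor, with 28.0 in KO and 28.7 in WT, and of Fgfr2. The Fgfr2 peak was annotated to an intron, with 22.6 in KO and 9.26 in WT. Gdnf, named for its role, had a shared 3' UTR peak with a fold of 8.01 in KO and 7.41 in WT.

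Among genes of the stem cell state and surface, 17 of 23 had a peak. At the 0.05 limit 0 genes had KO-only peaks and 5 (29.4%) had WT-only peaks, beside 16.7% and 20.6% of all genes with a peak. These are few genes, and the difference from all genes was not tested. The WT-only peaks were in Utf1 (fold 16.7), Epcam (3.09), Sall1 (2.88) and the integrins Itga6 (2.01) and Itgb1 (1.53). By KO fold, the highest shared peaks were those of Sox3, with 23.5 in KO and 11.1 in WT, and of Pax7, with 21.7 in KO and 13 in WT.

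Among genes of differentiation and KIT signalling, 15 of 19 had a peak. KO-only peaks at the 0.05 limit were found in 2, Aldh1a1 (fold 12.6, in an intron) and Cdk6 (2.62), and WT-only peaks in 2, Rara (1.97) and Dmrt1 (1.73). Each share was 13.3%, beside 16.7% KO-only and 20.6% WT-only over all genes with a peak. ALDH1A1 makes retinoic acid, RARA is a receptor for it, and CDK6 is a partner of D-type cyclins. By KO fold, the highest shared peaks were those of Aldh1a1 (in an intron), with 16.7 in KO and 15.0 in WT, and of Rxra, with 12.2 in KO and 9.68 in WT. Kitl, the ligand of KIT, named for its role, had a shared 3' UTR peak with a fold of 9.13 in KO and 15.2 in WT.

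Among genes of PI3K, AKT and FOXO signalling, 17 of 18 had a peak. At the 0.05 limit KO-only peaks were found in 7 of them (41.2%), where 16.7% of all genes with a peak had one. WT-only peaks were found in 4 (23.5%), where 20.6% of all genes with a peak had one. The list is small and 1 of 5 that were read, and its KO-only share was not tested. Among the KO-only peaks were those of Pik3r1 (fold 3.38), Pik3cb (3.22), Rheb (3.07), Rptor (2.30), Tsc1 (2.26) and Akt2 (1.52). The WT-only peaks were in Pik3r1 (15.7), Foxo3 (2.10), Akt2 (1.57) and Pik3ca (1.48). By KO fold, the highest shared peaks were those of Pik3r1, with 18 in KO and 29.2 in WT, and of Foxo3, a relative of Foxo1, with 15.5 in KO and 33.6 in WT.

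**Figure D5:**
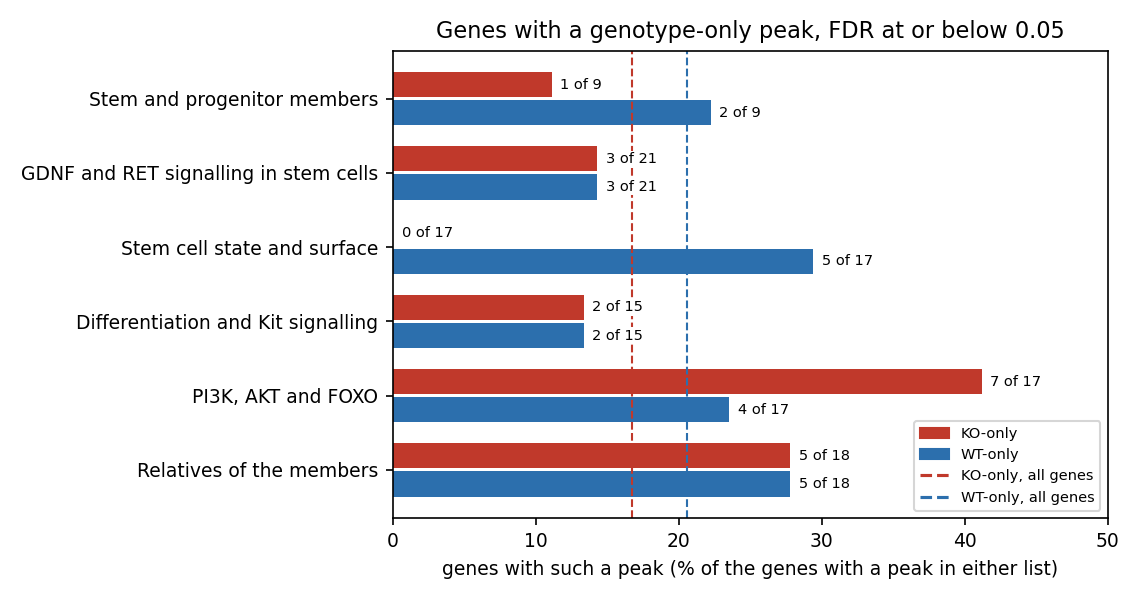
Share of genes with a KO-only (red) or WT-only (blue) peak of an FDR at or below 0.05, in percent of the genes of each list with a peak in either genotype, for the members and the 5 lists. Counts stand at the bars, and dashed lines give the share over all genes (16.7% KO-only, 20.6% WT-only). The PI3K, AKT and FOXO list has the longest KO-only bar (7 of 17) and the stem cell state and surface list has 0 of 17 KO-only.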

How the data were processed

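MeRIP-seq was made from whole testes of KO and WT mice, 12 libraries in all, grouped by their titles. The authors' deposited data are 2 peak lists. Per the file headers each list gives a fold enrichment (a linear ratio of IP over input), and the p-value and the FDR of each peak as log10 values, handled as a score. Per the file headers the positions and peak spans were deposited too; starts were moved to count from 1. The build was GRCm38, and HISAT2, StringTie, HOMER, fastp and FastQC are named in the submitters' processing notes. The peak caller and any pooling of replicates are not given in the sources used here. Depth per library is unknown, and its effect on FDR and fold could not be judged.

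Overlaps were computed on the same strand in Python 3.11.15 with pandas 2.3.3 and matched those of bedtools 2.31.1. Each KO peak was paired with the WT peak that shares most bases. The code was tested on simulated data. Older gene symbols were looked up in RefSeq (GRCm38.p6). All members were named. From the other lists, each gene with a genotype-only peak at an FDR of 0.05 or below was named, plus the 2 with the highest KO fold in a shared peak. A gene that this rule takes is not reported here by name. The members, lists and rules were chosen with earlier results of these data known. The planned fits on values per library were not run. Alternatives were 50% overlap, partners within 200 bases, limits on the FDR, equal list lengths, and other pairings and scalings of the folds.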

Additional observations from a re-analysis of the deposited data

How the results depend on the processing

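No paired analysis was possible because the data are 1 peak list per genotype with no values per library, and for the same reason no replicate could be left out. The members' 2 KO-only and 4 WT-only peaks kept these counts with partners allowed within 200 bases and at equal list lengths. With 50% of both peaks required to overlap they were 5 and 7, beside 42.6% of all KO and 44.0% of all WT peaks, since the Sall4 coding pair, the Nanos3 pair and the Gfra1 end pair no longer counted. With both lists limited to an FDR of 0.05 they were 2 (Gfra1 and Ccnd2) and 3 (Gfra1, Uchl1 and Ccnd2), beside 16.1% of all KO and 18.6% of all WT peaks, and with an FDR of 1e-05 they were 1 (Ccnd2, 5' UTR) and 1 (Id4), where 9 KO and 9 WT peaks of the members were left, beside 12.6% and 13% of all such peaks. The median log2 ratio of -0.17 stayed below 0 in all settings run, between -0.24 and -0.12. Members with peaks in both lists numbered 7, and 5 at an FDR of 1e-05. The settings for an FDR of 0.05 and for equal lengths of the median, and all those of the members in both lists, were added after seeing the data.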

Other observations

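Relatives of the members were nearly all marked in both genotypes. Of 19 such genes 18 had a peak, all 18 in both lists, with KO-only peaks in 5 genes and WT-only peaks in 5 (27.8% each) at an FDR at or below 0.05. Over all genes 80.2% were in both lists, 16.7% had such a KO-only and 20.6% such a WT-only peak. In the ID family, to which Id4 belongs, Id1 had a KO-only 3' UTR peak (fold 3.01, log10 FDR -14.0). Id2 (fold 2.26, log10 FDR -2.27) and Id3 (fold 1.85, log10 FDR -3.89) had WT-only 5' UTR peaks. All of these genes also had a shared peak, with a fold of 2.68 in KO and 4.33 in WT for Id1. The shared folds were 3.26 in KO and 3.9 in WT for Id2, and 3.03 in KO and 4.47 in WT for Id3. Of the helix-loop-helix genes whose products pair with ID proteins, Tcf12 had a KO-only peak (fold 1.83, log10 FDR -16.6) and Tcf4 had both kinds, with a fold of 11.7 in the KO-only and 9.72 in the WT-only peak. Zbtb7a (fold 9.92) and Sall3 (8.12) had KO-only peaks, and Uchl5 (9.26) and Sall2 (2.08) WT-only peaks.

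The highest shared KO folds of this group lay in genes of the Nanos and Pumilio partnership, which represses translation. Pum2 had a fold of 71.3 in KO and 38.9 in WT, and Nanos1 41.5 in KO and 21.0 in WT. Both folds stand above those of Nanos3 itself, 3.16 in KO and 9.26 in WT. These are differences between 2 lists without replicate error.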
